A study of Homo sapiens with 48 samples.

Results

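The genes described here build and regulate the class I antigen presentation pathway: the heavy chains HLA-B and HLA-C, their light chain B2M, the peptide transporter genes TAP1 and TAP2, the loading factor TAPBP, the immunoproteasome subunits PSMB8 and PSMB9, and NLRC5. They are 9 of the 35535 genes in the table, chosen by name as the parts of 1 pathway. RNA was sequenced from 8 lines of human bladder cancer cells, which were TCCSUP, VMCUB, 639V, T24, SW780, KU1919, HT1376 and HT1197. All were exposed to 250 nM CPI-0209, an inhibitor of the histone methyltransferase EZH2, for 4 days, or given DMSO, with 3 libraries for each of the 16 groups. The comparisons are CPI-0209 against DMSO within each line, and the DMSO level between lines. All values are from RNA of cultured tumour lines with no added interferon named in the labels, and nothing in the labels says that the 3 libraries of a group came from separate cultures, so p-values measure the spread among the sequenced samples alone, and that spread may be technical. Levels are given in CPM, counts scaled to 1000000 per library with TMM factors from all 48 libraries together. Overlap between groups is read from these CPM. The log2 fold change within a line used TMM factors from its own 6 libraries, so it need not equal the ratio of the CPM given.

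Class I molecules carry peptides of a cell's own proteins to its surface, where CD8 T cells read them. The proteasome cuts the proteins, and PSMB8 and PSMB9 replace the constitutive catalytic subunits PSMB5 and PSMB6 in the immunoproteasome. TAP1 and TAP2 together form the pump that moves peptides into the endoplasmic reticulum, where TAPBP (tapasin) holds the pump beside empty heavy chains. NLRC5 has no DNA-binding domain. It is recruited to class I promoters by the RFX, CREB/ATF and NF-Y factors and activates the heavy chains, B2M, TAP1 and PSMB9, and interferon gamma raises its own transcription. EZH2 is the catalytic subunit of PRC2, which places a repressive methyl mark on histone H3, and class I pathway genes are known PRC2 targets in some tumours.

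The stretches upstream of the start sites are shown for 5 genes, since these are where NLRC5, interferon regulatory factors and NF-kB are known to meet the pathway. They are the 200 bases before the start site in RefSeq, build GRCh38.p14, on the strand of the gene. HLA-B lies at chr6:31357180-31357379, HLA-C at chr6:31272093-31272292, TAP1 at chr6:32853705-32853904 and TAPBP at chr6:33314079-33314278, all on the minus strand, and B2M at chr15:44711317-44711516 on the plus strand. Capitals mark every match, on either strand, to an interferon-stimulated response element (ISRE; GAAA, any 2 bases, GAAA), to the shorter form called IRF pair here (GAA, any 2 bases, GAAA), to an NF-kB motif (GGGA, any 4 bases, CC) or to CCAAT (bound by NF-Y), and neighbouring capitals can belong to overlapping matches.
HLA-B: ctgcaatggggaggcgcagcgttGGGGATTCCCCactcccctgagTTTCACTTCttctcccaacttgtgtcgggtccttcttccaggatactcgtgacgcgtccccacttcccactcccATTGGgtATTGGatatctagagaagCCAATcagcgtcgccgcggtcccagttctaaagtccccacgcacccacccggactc
HLA-C: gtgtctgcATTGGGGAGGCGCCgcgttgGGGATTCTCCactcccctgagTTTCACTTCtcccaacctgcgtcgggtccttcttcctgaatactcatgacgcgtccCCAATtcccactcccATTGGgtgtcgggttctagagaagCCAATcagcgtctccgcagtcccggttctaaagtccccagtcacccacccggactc
B2M: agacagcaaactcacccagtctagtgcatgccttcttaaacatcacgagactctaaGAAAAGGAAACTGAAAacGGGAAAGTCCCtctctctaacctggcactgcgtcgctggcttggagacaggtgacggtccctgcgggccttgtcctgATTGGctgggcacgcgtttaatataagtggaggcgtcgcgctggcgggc
TAP1: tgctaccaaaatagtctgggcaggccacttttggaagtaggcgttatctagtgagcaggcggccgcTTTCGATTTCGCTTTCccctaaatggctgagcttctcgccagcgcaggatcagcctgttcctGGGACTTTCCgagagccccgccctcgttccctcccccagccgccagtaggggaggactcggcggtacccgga
TAPBP: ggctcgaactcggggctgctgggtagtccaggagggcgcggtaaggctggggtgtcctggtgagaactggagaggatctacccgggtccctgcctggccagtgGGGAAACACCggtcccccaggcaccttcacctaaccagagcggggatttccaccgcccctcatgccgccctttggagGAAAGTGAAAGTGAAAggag
The HLA-B and HLA-C stretches were 87.7% identical over 204 aligned columns. Both held the IRF pair read on the opposite strand, an NF-kB motif and CCAAT, and neither held the ISRE. Over the whole window of 250 bases before to 50 bases after the start, a promoter was listed for 8 of the 9 genes, all but NLRC5. TAP1 and PSMB8 have 2 listed starts, which makes 10 windows for these 8 genes. The ISRE was found in 5 of the 10, those of B2M, TAP2 and TAPBP and 1 of the 2 of TAP1 and PSMB8 each, and in 3.57% of all 35116 windows of this length. The IRF pair was found in 4 of 10 and in 7.66% of all windows, and in TAP2 and PSMB8 it shared bases with an ISRE match. The NF-kB motif was found in 5 of 10 and in 25.6% of all windows, CCAAT in 5 of 10 and in 34.6%, and TGACG (the core of a CREB site, not capitalised) in 6 of 10 and in 24.6%. A match describes letters in these windows and nothing about binding.

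Library totals lay between 26481418 and 50916911 counts, with a median of 41665645, and mitochondrial genes held 1.75% to 6.18% of them. The RNA of EZH2 itself, which an inhibitor of the enzyme need not change, was called higher in HT1376 (log2 fold change 0.15, adjusted p = 0.0377) and TCCSUP (0.16, adjusted p = 0.0173), and in 0 other lines. The libraries of 4 groups were spread more widely than the rest, with a median SD of log2 CPM of 0.175 in KU1919 CPI-0209, where replicate 1 stood apart, 0.151 in VMCUB DMSO, 0.145 in T24 CPI-0209 and 0.136 in T24 DMSO, against 0.046 to 0.087 elsewhere. Leukocyte markers, which matter here because blood cells carry much class I, summed to between 7.46 and 125.93 CPM over 12 genes, with 7 to 10 of the 12 under 1 CPM, and CD2 and MS4A1 at 0 counts in most groups. In HT1376 their sum was 41.2 to 48.5 CPM in CPI-0209 and 17.73 to 18.68 CPM in DMSO, and in SW780 it was 25.47 to 28.36 CPM in CPI-0209 and 36.62 to 39.59 CPM in DMSO. In TCCSUP it was 71.96 to 74.62 CPM in CPI-0209 and 85.19 to 105.56 CPM in DMSO, and PTPRC, which encodes the leukocyte antigen CD45, averaged 21.5 CPM in CPI-0209 and 28.1 CPM in DMSO there, against at most 0.516 CPM in any other group. The part of these genes in the results was not tested. The 12 urothelial and epithelial markers summed to 2082.55 CPM or more in every library, with TCCSUP and 639V lowest, and the 9 fibroblast markers summed to 11914.82 to 12393.83 CPM in CPI-0209 and 8178.51 to 9523.2 CPM in DMSO in TCCSUP. The fibroblast sum was also higher in CPI-0209 without overlap in T24 (19.34 to 24.27 CPM in CPI-0209 and 5.52 to 6.92 CPM in DMSO), KU1919, VMCUB, HT1197, SW780 and 639V, and lower without overlap in HT1376 (227.47 to 251.73 CPM in CPI-0209 and 284.11 to 294.73 CPM in DMSO). Most single fibroblast markers went the other way in HT1376. Of 7 tested there, 5 were called higher and 2 lower, with a median log2 fold change of 3.12. The part of the fibroblast markers in the results was not tested. Fewer cells of a kind and less RNA per cell cannot be told apart in these data.

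The response of the pathway to CPI-0209 differed by line. In HT1376 8 of 9 genes were called higher and 0 lower, all but PSMB8. In SW780 the pathway went both ways, with NLRC5 and TAP2 higher and 6 genes lower. Between these, 5 of 9 were called higher in 639V, TCCSUP and VMCUB each, 4 in KU1919, 2 in HT1197 and 1 in T24. HLA-B was the gene that rose most often, in 6 of 8 lines, and NLRC5 had the largest changes among the 9 genes, 3.59-fold in VMCUB and 3.56-fold in SW780. A call here means a Benjamini-Hochberg adjusted p under 0.05 over all genes tested in the line, by edgeR's quasi-likelihood test.

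These counts are to be read against how often any gene was called in that line. In HT1376 23.7% of all tested genes were called higher, against 8 of 9 here. The share called higher was 22.1% in 639V, 25.7% in TCCSUP and 16.4% in VMCUB. It was 9.3% in KU1919, 11.8% in HT1197 and 9.37% in T24. In SW780 30.8% of genes were called higher and 30.3% lower. Genes called lower were 1 in TCCSUP (TAPBP, background 23.0%), 1 in HT1197 (TAP2, background 7.8%) and 0 in the other 5 lines, where the background of lower calls was 16% in HT1376, 2.4% in KU1919, 0.93% in T24, 17.1% in 639V and 11.0% in VMCUB. Over the 72 pairs of gene and line, 32 were called higher, 8 lower and 32 neither, beside 18.8% higher and 13.8% lower over all genes and lines. The median log2 fold change of the 9 genes was highest in HT1376 at 0.54 and lowest in SW780 at -0.19, while the median over all genes in a line was between -0.01 and 0.04.

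**Figure D1:**
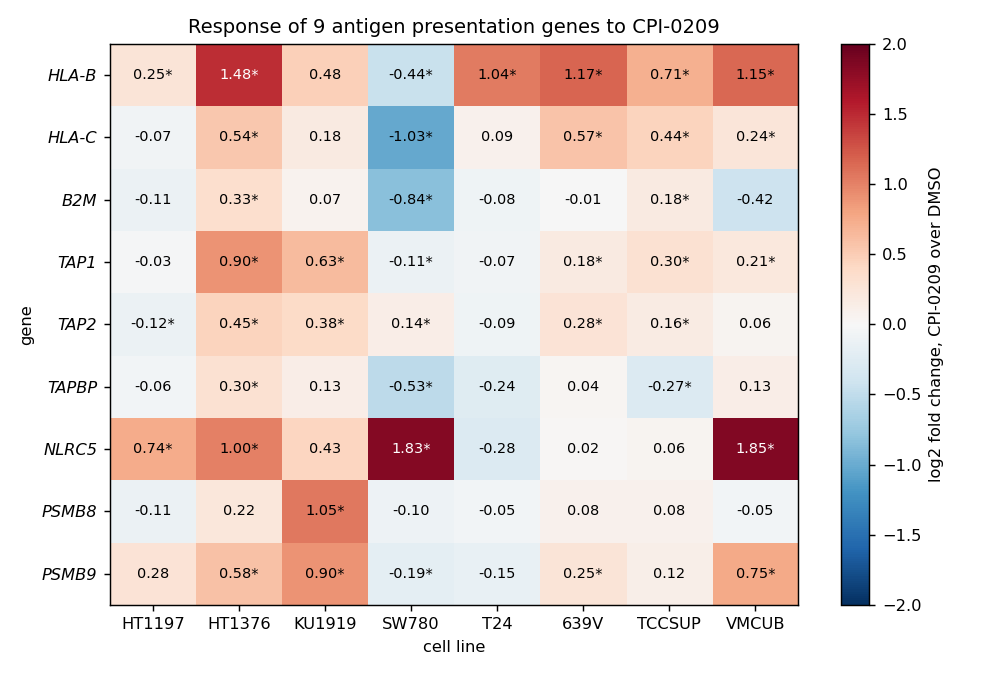
Log2 fold change of each of the 9 genes (vertical) in each of the 8 cell lines (horizontal), CPI-0209 over DMSO; red is higher in CPI-0209, blue lower, and an asterisk marks an adjusted p under 0.05 in the line's own fit. The HT1376 column is red throughout, the SW780 column is blue except for NLRC5 at 1.83 and TAP2 at 0.14, and the HLA-B entries are positive in all lines but SW780.

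The heavy chain HLA-B presents peptides to CD8 T cells and also serves as a ligand of inhibitory receptors on natural killer cells. In HT1376 it stood at 486, 581 and 549 CPM in CPI-0209 and at 229, 193 and 170.0 CPM in DMSO, all CPI-0209 libraries above all DMSO libraries. The log2 fold change was 1.48 ± 0.11 (SE, adjusted p = 1.02e-05). In 639V HLA-B had 149, 170.0 and 146 CPM in CPI-0209, against 70.0, 72.3 and 63.9 CPM in DMSO. The groups were far apart, with a log2 fold change of 1.17 ± 0.06 (SE, adjusted p = 3.8e-09). In VMCUB, where HLA-B was lowest, it had 36.7, 36.5 and 35.9 CPM in CPI-0209 and 15.2, 22.1 and 14.01 CPM in DMSO. The 3 CPI-0209 libraries agreed closely and the DMSO libraries less so, and the log2 fold change was 1.15 ± 0.15 (SE, adjusted p = 0.00254). In T24 it had 52.8, 53.9 and 72.6 CPM in CPI-0209 and 31.6, 30.9 and 25.1 CPM in DMSO, a log2 fold change of 1.04 ± 0.13 (SE, adjusted p = 0.00295), the only call among the 9 genes in T24.

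In TCCSUP, the line with the most HLA-B, CPI-0209 libraries held 1135, 1102 and 1108 CPM and DMSO libraries 689.8, 673 and 735 CPM. This was a log2 fold change of 0.71 ± 0.06 (SE, adjusted p = 3.25e-07). HT1197 rose least, with 124, 116 and 129 CPM in CPI-0209 and 99.9, 108 and 108 CPM in DMSO, a log2 fold change of 0.25 ± 0.04 (SE, adjusted p = 0.000458). That call was lost when all 48 libraries shared 1 estimate of spread, at 0.23 with adjusted p = 0.398. In KU1919 the CPI-0209 libraries, at 145, 99.6 and 105 CPM, all lay above the DMSO libraries at 81.8, 82.8 and 83.7 CPM, but replicate 1 was well above the other two and the test gave 0.48 ± 0.13 (SE, adjusted p = 0.0502). Without that replicate the log2 fold change was 0.33, with adjusted p = 8.14e-05. SW780 alone went down, with 56.2, 54.9 and 56.6 CPM in CPI-0209 and 73.7, 71.2 and 79.1 CPM in DMSO, a log2 fold change of -0.44 ± 0.05 (SE, adjusted p = 1.44e-07). Being called higher in at least 6 of 8 lines was seen for 4.57% of the 13011 genes tested in all lines.

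HLA-C, the other heavy chain measured, is a main ligand of killer cell immunoglobulin-like receptors. Its largest change was in SW780, where it had 159.6, 149 and 164 CPM in CPI-0209 and 319, 299.6 and 329 CPM in DMSO. The groups did not come near each other, and the log2 fold change was -1.03 ± 0.05 (SE, adjusted p = 2.65e-12). HLA-C rose in 639V by a log2 fold change of 0.57 ± 0.06, in HT1376 by 0.54 ± 0.12 and in TCCSUP by 0.44 ± 0.06. In VMCUB the increase was 0.24 ± 0.06 (SE, adjusted p = 0.0296), and leaving out any 1 library other than DMSO replicate 2 took it to adjusted p between 0.0817 and 0.13. In HT1197, KU1919 and T24 the groups overlapped, with log2 fold changes of -0.07 ± 0.05, 0.18 ± 0.10 and 0.09 ± 0.12. HLA-C was called higher in 4 lines and lower in 1.

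Both heavy chains were thus called together in 5 lines, and the log2 fold change of HLA-B was above that of HLA-C in every line. The ratio of HLA-B to HLA-C, taken per kilobase of exon within each library so that the scaling between libraries cancels, was higher in all 3 CPI-0209 libraries than in any DMSO library in 8 of 8 lines. In HT1376 it was 2.82 ± 0.0897 in CPI-0209 and 1.48 ± 0.0643 in DMSO (SD, n = 3 each). In T24 it was 1.29 ± 0.179 in CPI-0209 and 0.669 ± 0.051 in DMSO, and in VMCUB 0.168 ± 0.00514 in CPI-0209 and 0.0896 ± 0.0174 in DMSO. SW780, where both genes fell, had 0.292 ± 0.0107 in CPI-0209 and 0.194 ± 0.00385 in DMSO. The smallest shift was in TCCSUP, at 0.761 ± 0.00393 in CPI-0209 and 0.633 ± 0.00809 in DMSO. The pair was chosen for this pattern after its values were seen, so no test is given. Of 13010 genes tested in all lines, 0.407% had a ratio to HLA-C that was higher without overlap in all 8 lines. A ratio shows unequal change and not which gene changed.

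How reads were divided between the heavy chains limits this. In GENCODE 29 the annotated body of HLA-B (chr6:31269491-31357188) overlaps that of HLA-C (chr6:31268749-31272130), with overlapping exons on the same strand. Of the stretches of 31 bases in the HLA-B transcript, 10.81% also occur in HLA-C, and 11.48% of those of HLA-C occur in HLA-B. The lines carry alleles that can differ from the reference, so levels between lines may depend on the allele, while a comparison within a line is between libraries of the same cells.

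**Figure D2:**
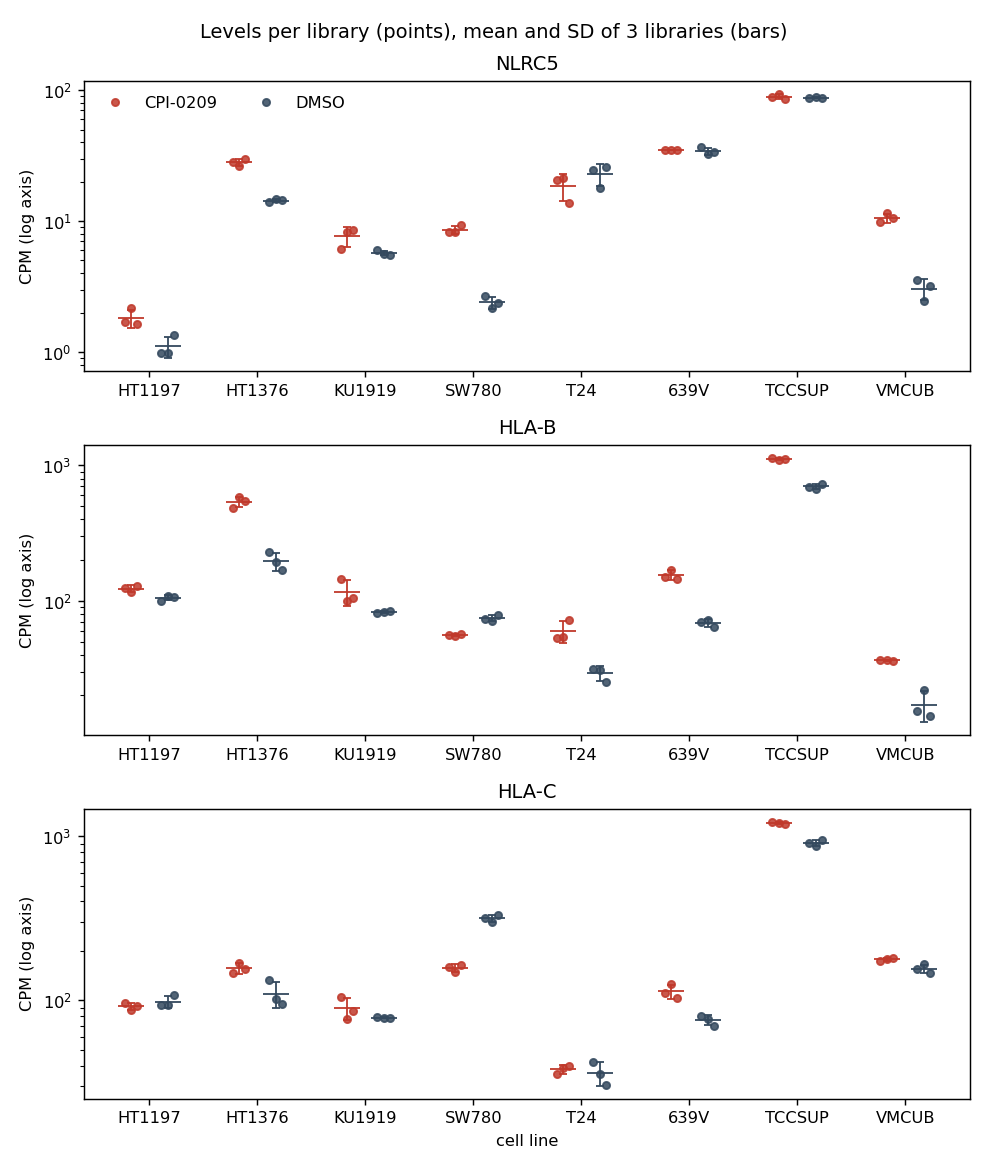
CPM (log axis) of NLRC5, HLA-B and HLA-C in each library (points) of the 8 cell lines, CPI-0209 in red to the left of DMSO in dark blue, with the mean and SD of 3 libraries as bars. NLRC5 separates the groups most in SW780 and VMCUB and not in 639V or TCCSUP, HLA-B is higher in CPI-0209 in all lines but SW780, and HLA-C is lower in CPI-0209 in SW780.

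B2M, the light chain without which heavy chains do not reach the surface, changed less than the heavy chains in most lines. In SW780 it had 220.3, 218 and 203 CPM in CPI-0209, against 357, 389 and 382 CPM in DMSO. This was the largest fall outside HLA-C, with a log2 fold change of -0.84 ± 0.05 (SE, adjusted p = 1.77e-11). In HT1376 B2M rose by a log2 fold change of 0.33 ± 0.06 (SE, adjusted p = 0.00313), with 552, 605 and 565 CPM in CPI-0209 and 500.0, 459 and 437 CPM in DMSO. In TCCSUP it was called higher at 0.18 ± 0.06 (SE, adjusted p = 0.0291), although the groups overlapped and leaving out any of 4 libraries gave an adjusted p between 0.0736 and 0.141. In VMCUB all CPI-0209 libraries (293, 309 and 304 CPM) lay below all DMSO libraries (393, 531 and 338 CPM). The DMSO libraries there were widely spread, and the log2 fold change of -0.42 ± 0.15 (SE) had an adjusted p of 0.0725. It passed the threshold without DMSO replicate 2, at -0.24 with adjusted p = 0.0204, and without DMSO replicate 3, at -0.61 with adjusted p = 0.00723. The other 4 lines had values between -0.11 and 0.07, none called.

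TAP1, the first chain of the peptide transporter, was called higher in 5 lines and lower in 1. In HT1376 it had 90.3, 97.9 and 96.7 CPM in CPI-0209 and 55.4, 50.3 and 50.4 CPM in DMSO. The groups were well separated, with a log2 fold change of 0.90 ± 0.06 (SE, adjusted p = 2.48e-06). In KU1919 it had 40.9, 38.5 and 42.5 CPM in CPI-0209 and 27.8, 25.7 and 25.1 CPM in DMSO, a log2 fold change of 0.63 ± 0.08 (SE, adjusted p = 0.00292). Here the replicate that stood apart for other genes was level with the rest. Smaller increases were called in TCCSUP (0.30 ± 0.05), VMCUB (0.21 ± 0.06) and 639V (0.18 ± 0.04), of which the one in VMCUB was lost when any 1 library other than DMSO replicate 2 was left out, with adjusted p between 0.0659 and 0.146. In SW780 the call of -0.11 ± 0.05 (SE, adjusted p = 0.0399) rested on overlapping groups and was lost without any of 3 libraries, with adjusted p between 0.104 and 0.172.

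TAP2, the second chain, followed TAP1 in part. It rose in HT1376 (log2 fold change 0.45 ± 0.08), KU1919 (0.38 ± 0.07), 639V (0.28 ± 0.04), TCCSUP (0.16 ± 0.06) and SW780 (0.14 ± 0.04), and fell in HT1197 (-0.12 ± 0.03). In 639V it had 67.9, 71.0 and 68.5 CPM in CPI-0209 and 57.3, 56.8 and 56.7 CPM in DMSO, groups that did not overlap. The calls in KU1919, TCCSUP, SW780 and HT1197 were each lost without at least 1 library, with adjusted p up to 0.109 in KU1919, 0.148 in TCCSUP, 0.0612 in SW780 and 0.0778 in HT1197. Of the stretches of 31 bases in TAP2, 35.97% also occur in some other annotated gene, and which gene was not recorded. The exons of AL669918.1 overlap those of TAP2 on the same strand. The counts of TAP2 are therefore uncertain.

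TAPBP was called higher in HT1376 alone, at 201, 195 and 203 CPM in CPI-0209 and 161, 168 and 169 CPM in DMSO, a log2 fold change of 0.30 ± 0.05 (SE, adjusted p = 0.000977). It was called lower in SW780 and TCCSUP. In SW780 it had 92.9, 89.7 and 92.8 CPM in CPI-0209 and 132, 129 and 129 CPM in DMSO, a log2 fold change of -0.53 ± 0.04 (SE, adjusted p = 2.5e-09). In TCCSUP it had 313, 302 and 312 CPM in CPI-0209 and 360.4, 401 and 389 CPM in DMSO, a log2 fold change of -0.27 ± 0.05 (SE, adjusted p = 0.000719), while HLA-B, HLA-C and TAP1 were higher there. All 3 comparisons had groups that did not overlap.

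NLRC5, the class I transactivator, was called higher in 4 lines and lower in 0. In SW780 it had 8.18, 8.30 and 9.25 CPM in CPI-0209 and 2.66, 2.15 and 2.37 CPM in DMSO. The groups were widely separated, with a log2 fold change of 1.83 ± 0.10 (SE, adjusted p = 3.34e-11). In VMCUB it had 9.77, 11.5 and 10.5 CPM in CPI-0209 and 3.52, 2.45 and 3.17 CPM in DMSO, a log2 fold change of 1.85 ± 0.15 (SE, adjusted p = 0.000345). In HT1376 it stood at 28.1, 26.4 and 29.7 CPM in CPI-0209 and 13.9, 14.6 and 14.4 CPM in DMSO. No libraries of the groups came near each other, with a log2 fold change of 1.00 ± 0.07 (SE, adjusted p = 2.3e-06). In HT1197 NLRC5 was near 1 CPM, with 1.68, 2.15 and 1.63 CPM in CPI-0209 and 0.98, 0.99 and 1.34 CPM in DMSO, and the increase of 0.74 ± 0.19 (SE, adjusted p = 0.0124) was lost without DMSO replicate 2 (adjusted p = 0.0586), without CPI-0209 replicate 2 (adjusted p = 0.0647) and with DESeq2 (adjusted p = 0.0719). The calls in HT1376, SW780 and VMCUB held under every alternative run.

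In the 3 lines with the most NLRC5 in DMSO the gene did not pass the test. In TCCSUP it had 88.1, 93.1 and 85.8 CPM in CPI-0209 and 86.5, 88.6 and 87.8 CPM in DMSO, a log2 fold change of 0.06 ± 0.05. In 639V it had 34.9, 34.8 and 34.8 CPM in CPI-0209 and 36.5, 32.4 and 33.9 CPM in DMSO, a log2 fold change of 0.02 ± 0.05. In T24 the libraries were more spread, at 20.7, 21.2 and 13.7 CPM in CPI-0209 and 24.5, 17.9 and 26.1 CPM in DMSO, with -0.28 ± 0.23. HLA-B was called higher in all 3 of these lines. In KU1919 NLRC5 had 6.14, 8.30 and 8.49 CPM in CPI-0209 and 5.96, 5.61 and 5.51 CPM in DMSO, at 0.43 ± 0.16 (SE, adjusted p = 0.146), and without CPI-0209 replicate 1 the value was 0.58 with adjusted p = 0.000266.

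The immunoproteasome subunits PSMB8 and PSMB9 were both called higher in KU1919. PSMB8, whose chymotrypsin-like activity takes the place of that of PSMB5, had 21.7, 14.9 and 16.5 CPM in CPI-0209 there and 8.98, 7.95 and 8.52 CPM in DMSO. The log2 fold change was 1.05 ± 0.13 (SE, adjusted p = 0.00257), and 0.92 without CPI-0209 replicate 1 (adjusted p = 2.1e-06). This was the single call for PSMB8. In HT1376 it missed the threshold at 0.22 ± 0.08 (SE, adjusted p = 0.0504) and passed it without DMSO replicate 1, at 0.30 with adjusted p = 0.00201, and the other 6 lines lay between -0.11 and 0.08, of which SW780 passed without CPI-0209 replicate 1 at -0.13 with adjusted p = 0.0468.

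PSMB9, which takes the place of PSMB6, rose in 4 lines. In VMCUB it had 14.2, 15.6 and 14.2 CPM in CPI-0209 and 8.73, 11.1 and 7.45 CPM in DMSO, a log2 fold change of 0.75 ± 0.13 (SE, adjusted p = 0.00814). In KU1919 it had 15.5, 8.54 and 10.0 CPM in CPI-0209 and 6.57, 6.21 and 5.35 CPM in DMSO, a log2 fold change of 0.90 ± 0.20 (SE, adjusted p = 0.0292), with 0.64 and adjusted p = 0.000459 without the high first CPI-0209 replicate and adjusted p between 0.0586 and 0.118 without any DMSO library or CPI-0209 replicate 3. HT1376 rose by 0.58 ± 0.07 and 639V by 0.25 ± 0.06, and SW780 fell by a small amount, with a log2 fold change of -0.19 ± 0.06 (SE, adjusted p = 0.0067). The exons of PSMB8 and PSMB9 overlap on opposite strands, and those of TAP1, PSMB8 and PSMB9 overlap the RNA gene PSMB8-AS1. Whether strand was used in counting is not given, so reads of these partners cannot be told apart with certainty.

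The ratios of the immunoproteasome genes to the constitutive subunits they replace were higher in most lines, and again a ratio does not show which gene changed. The ratio of PSMB8 to PSMB5 per kilobase was higher in CPI-0209 without overlap in 7 of 8 lines, all but HT1197. It was 0.0811 ± 0.00578 in CPI-0209 and 0.0418 ± 0.00177 in DMSO in KU1919, and 0.319 ± 0.0168 in CPI-0209 and 0.231 ± 0.00562 in DMSO in SW780 (SD, n = 3 each). PSMB5 was called lower in SW780 (log2 fold change -0.56 ± 0.04), TCCSUP (-0.26 ± 0.07) and HT1376 (-0.23 ± 0.06), and PSMB8 was not called in these lines. In VMCUB PSMB5 was at -0.40 ± 0.13 (SE, adjusted p = 0.0555) and PSMB8 at -0.05 ± 0.18, neither called. The ratio of PSMB9 to PSMB6 was higher in 6 lines and overlapped in T24 and TCCSUP. In VMCUB it was 0.0474 ± 0.00162 in CPI-0209 and 0.0218 ± 0.000217 in DMSO. The third pair, PSMB10 over PSMB7, was higher in 5 lines, lower in TCCSUP and overlapping in 2. For comparison, 4.72% of genes had a ratio to PSMB5 that was higher without overlap in at least 7 lines, and 6.86% had such a ratio to PSMB6 in at least 6. For PSMB7 in at least 5 lines the share was 16.1%.

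**Figure D3:**
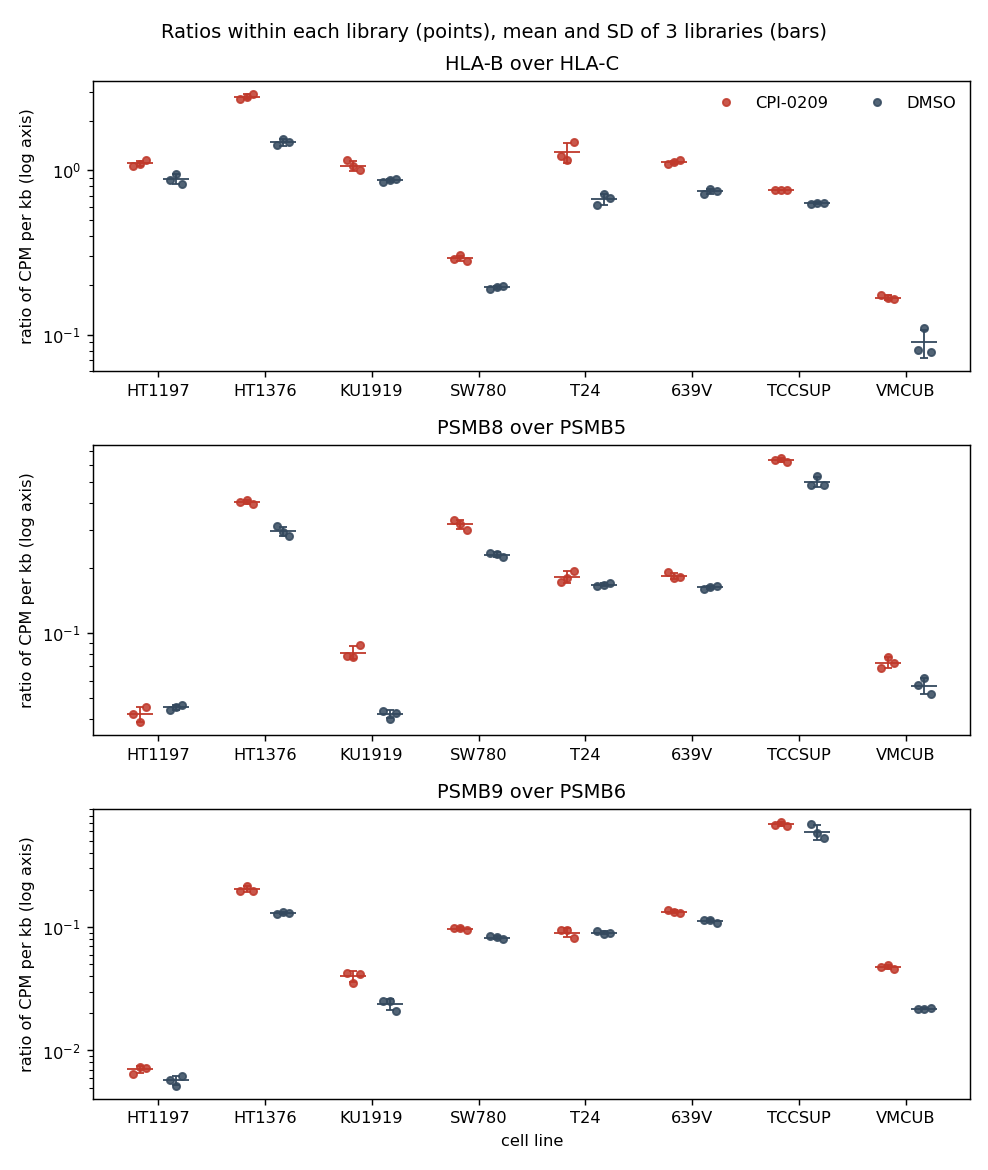
Ratio of 2 genes within each library, each in CPM per kilobase of exon (log axis), for HLA-B over HLA-C, PSMB8 over PSMB5 and PSMB9 over PSMB6, with CPI-0209 in red to the left of DMSO in dark blue and bars for the mean and SD of 3 libraries. The HLA-B over HLA-C points of CPI-0209 lie above those of DMSO in all 8 lines; for PSMB8 over PSMB5 this holds in 7 lines, and for PSMB9 over PSMB6 in 6.

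Whether lines differed in response was tested directly, with an F test of the 7 line by treatment terms. All 9 genes were called, beside 58.7% of all genes tested, with adjusted p from 5.77e-15 for TAP1 to 8.32e-05 for PSMB8. Each line was then set against the mean response of the other 7. Of the 72 pairs of gene and line, 18 were called above and 17 below that mean, beside 8.73% above and 10.8% below over all genes and lines. HT1376 was above the others for 6 genes, HLA-B (difference of log2 fold changes 0.84 ± 0.13), TAP1 (0.72 ± 0.06), B2M (0.49 ± 0.14), HLA-C (0.47 ± 0.11), TAPBP (0.39 ± 0.08) and TAP2 (0.33 ± 0.06), where 11.1% of all genes were. No gene of the 9 was below the others in HT1376, where 8.81% of all genes were. The calls for HLA-C, B2M and TAP2 were lost without replicate 2 in all groups, with adjusted p of 0.136, 0.189 and 0.0571 in that order, and those for HLA-C and TAP2 also without replicate 3 (adjusted p = 0.0734 and 0.0788).

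SW780 was below the others for 6 genes and above them for 1. NLRC5 stood 1.33 ± 0.16 above the mean of the other lines (SE, adjusted p = 8.58e-09). HLA-B was at -1.29 ± 0.13 (adjusted p = 5.11e-10), and HLA-C was at -1.27 ± 0.11 (adjusted p = 2.28e-12). B2M was at -0.79, PSMB9 at -0.53, TAPBP at -0.49 and TAP1 at -0.37. Over all genes 13.8% were above and 16.8% below in this line. In this line NLRC5 was higher in CPI-0209 while HLA-B, HLA-C and B2M, all known targets of it, were lower, and a link between these values was not tested.

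The remaining lines each differed from the mean of the others in some of the 9 genes. KU1919 was above the others for PSMB8 (1.07 ± 0.16), PSMB9 (0.69 ± 0.15), TAP1 (0.45 ± 0.06), TAP2 (0.28 ± 0.06) and TAPBP (0.24 ± 0.08), against 9.41% of all genes above and 13.7% below, with PSMB9 lost without replicate 1 (0.42, adjusted p = 0.141) and TAPBP lost without replicate 1 or 3 (adjusted p = 0.115 and 0.331). VMCUB was above them for NLRC5 (1.26 ± 0.16), PSMB9 (0.45 ± 0.14) and HLA-B (0.43 ± 0.14) and below for B2M (-0.41 ± 0.14), against 10.8% of all genes above and 14.4% below, and of these NLRC5 held whichever replicate number was left out. 639V was above for HLA-C (0.54 ± 0.11) and HLA-B (0.52 ± 0.13) and below for NLRC5 (-0.76 ± 0.13), against 7.74% of all genes above and 7.47% below. TCCSUP was above for HLA-C (0.34 ± 0.11) and below for NLRC5 (-0.76 ± 0.13) and TAPBP (-0.27 ± 0.08), against 9.1% above and 11.7% below. T24 was below for NLRC5 (-1.13 ± 0.13), PSMB9 (-0.53 ± 0.14), TAP1 (-0.37 ± 0.06) and TAP2 (-0.28 ± 0.06) and above for none, against 6.1% below and 4.98% above. HT1197 was below for HLA-B (-0.56 ± 0.13), TAP1 (-0.32 ± 0.05) and TAP2 (-0.32 ± 0.06) and above for none, against 7.11% below and 2.82% above. Leaving out 1 replicate number took HLA-B in HT1197 (adjusted p = 0.0557) and 639V (0.11), TAP1 in HT1197 (0.0553), PSMB9 in T24 (0.0966), and HLA-C (0.169) and TAPBP (0.112) in TCCSUP out of the calls.

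A common response was tested on counts summed over the 3 libraries of a group, with the line as the unit. HLA-B was the single gene of the 9 called, with a log2 fold change of 0.71 ± 0.19 (SE, adjusted p = 0.0415), where 7.31% of all genes were called higher and 4.42% lower. The call was lost when HT1376, KU1919, T24, 639V, TCCSUP or VMCUB was left out, with adjusted p between 0.0593 and 0.0938 and log2 fold changes between 0.61 and 0.75. NLRC5 followed at 0.67 ± 0.26 (SE, adjusted p = 0.111) and passed with DESeq2 (0.66, adjusted p = 0.0398). PSMB9 was at 0.30 ± 0.13, TAP1 at 0.23 ± 0.11, TAP2 at 0.13 ± 0.07, PSMB8 at 0.12 ± 0.12, HLA-C at 0.11 ± 0.16, TAPBP at -0.08 ± 0.08 and B2M at -0.13 ± 0.12.

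Other genes of the pathway were read from lists of 80 genes in all. Among 9 other heavy chains and relatives, HLA-F, a non-classical class I gene, was called higher in all 7 lines where it was tested. In HT1197, at 0.267 CPM in CPI-0209 and 0.199 CPM in DMSO, it did not pass the filter on low counts. HLA-F was also under 1 CPM in DMSO in TCCSUP (0.677) and VMCUB (0.653). Over all genes and lines 18.8% were called higher. Of the 13011 genes tested in all 8 lines, which leave out HLA-F, 4.57% were called higher in at least 6. In HT1376 HLA-F had 92.7, 104 and 97.4 CPM in CPI-0209 and 40.0, 33.4 and 30.0 CPM in DMSO, a log2 fold change of 1.53 ± 0.10 (SE, adjusted p = 2.12e-06). In SW780, where HLA-B and HLA-C fell, HLA-F had 12.1, 12.02 and 13.1 CPM in CPI-0209 and 9.88, 8.63 and 9.73 CPM in DMSO, a log2 fold change of 0.38 ± 0.07 (SE, adjusted p = 0.000208). Its shared log2 fold change was 0.78 ± 0.17 (SE, adjusted p = 0.0264). MICB, a stress ligand of the natural killer receptor NKG2D, was called higher in 5 lines, with 1.49 ± 0.14 in KU1919 and 1.45 ± 0.13 in HT1376. HLA-E rose in HT1376 (0.30 ± 0.06) and 639V (0.25 ± 0.05) and fell in SW780 (-0.43 ± 0.04). FCGRT rose in TCCSUP (2.00 ± 0.16), HT1376 (1.64 ± 0.28, under 1 CPM) and SW780 (0.21 ± 0.09) and fell in 639V (-0.22 ± 0.08). In the shared response 2 genes of this list of 9 were called higher and 0 lower, beside 7.31% and 4.42% of all genes. The median log2 fold change of the 9 genes of this list was -0.01, the same as over all genes.

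Most genes of the proteasome and of the loading machinery of the endoplasmic reticulum were called lower in SW780. Of 14 proteasome genes outside the 9, 0 were called higher and 12 lower there, with a median log2 fold change of -0.47, beside a median of 0.02 over all genes and 30.3% called lower. PSME1, a subunit of the interferon-inducible 11S cap, had 89.9, 93.4 and 90.6 CPM in CPI-0209 and 189, 187 and 202 CPM in DMSO, a log2 fold change of -1.10 ± 0.04 (SE, adjusted p = 2.29e-13). Of 17 genes for peptide trimming, loading and folding, 1 was higher and 13 lower in SW780, with a median of -0.22. The chaperones of the heavy chain were among them, CALR at -1.04 ± 0.04, CANX at -0.88 ± 0.05 and PDIA3 at -0.46 ± 0.04. Proteasome genes were also called lower in TCCSUP (10 of 14, median log2 fold change -0.25) and 639V (9 of 14, median -0.13), where 23.0% and 17.1% of all genes were. In the other lines 0 or 1 of 14 was. VMCUB, with 1 of 14 called lower, nevertheless had a median of -0.35, beside 0.04 over all genes, and its DMSO libraries were widely spread. In HT1376, where 8 of the 9 genes were called higher, 1 proteasome gene was higher and 1 lower, and 1 trimming and loading gene was higher and 1 lower.

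Genes of interferon gamma signalling were called most often in TCCSUP, with 11 of 19 tested higher and 3 lower, in HT1376 with 9 of 19 higher and 0 lower, and in SW780 with 9 of 17 higher and 1 lower. Over all genes 25.7% were called higher in TCCSUP, 23.7% in HT1376 and 30.8% in SW780. In 639V 5 of 16 were higher and 4 lower, beside 22.1% and 17.1% of all genes. VMCUB had 2 of 16 higher and 3 lower, beside 16.4% and 11.0%. HT1197 had 3 of 18 higher and 2 lower, beside 11.8% and 7.8%. KU1919 (of 17) and T24 (of 18) had 2 higher and 2 lower each. The shares over all genes were 9.3% higher and 2.4% lower in KU1919, and 9.37% and 0.93% in T24. IRF1, an interferon-induced factor that acts on class I promoters, rose in KU1919 (0.67 ± 0.08), VMCUB (0.61 ± 0.06) and HT1376 (0.44 ± 0.06). CXCL10, a chemokine induced by interferon, had 23.3, 27.2 and 27.2 CPM in CPI-0209 and 1.08, 0.82 and 1.02 CPM in DMSO in HT1376, a log2 fold change of 4.75 ± 0.12 (SE, adjusted p = 8.11e-09). It was also called higher in TCCSUP (adjusted p = 4.65e-06), at 0.88, 0.85 and 0.96 CPM in CPI-0209 and 0, 0.06 and 0 CPM in DMSO, was not called in HT1197 and did not pass the filter on low counts in the other 5 lines. CD274, which encodes PD-L1, rose in TCCSUP (1.11 ± 0.07) and HT1376 (0.48 ± 0.06) and fell in HT1197, KU1919, T24, 639V and VMCUB, by log2 fold changes from -0.19 to -0.78.

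CIITA, the class II counterpart of NLRC5, rose in 2 lines. In HT1376 it had 43.8, 31.3 and 34.1 CPM in CPI-0209 and 3.81, 3.72 and 3.71 CPM in DMSO, a log2 fold change of 3.31 ± 0.14 (SE, adjusted p = 1.57e-07). In TCCSUP the increase was 0.93 ± 0.15. RFX5, which recruits both activators to promoters, rose in HT1376 (0.36 ± 0.05) and SW780 (0.31 ± 0.04). Of the 11 genes in this list, 6 were called higher and 1 lower in SW780, beside 30.8% and 30.3% of all genes, and 4 higher and 2 lower in TCCSUP, beside 25.7% and 23.0%. In HT1376 2 were higher and 2 lower, near the share over all genes, and the other 5 lines had 0 or 1 in either direction. Of 8 NF-kB subunits and inhibitors, 8 were called higher in SW780, with a median log2 fold change of 0.21, and 5 in HT1376, with 0.41, beside 30.8% and 23.7% of all genes. The list went the other way in 639V, with 0 higher and 4 lower (median -0.23), beside 22.1% and 17.1% of all genes. The same held in VMCUB, with 0 higher and 4 lower (median -0.16), beside 16.4% and 11.0%. This list had 1 higher and 2 lower in TCCSUP, beside 25.7% and 23.0%, and 0 higher and 1 lower in KU1919, beside 9.3% and 2.4%. It had no call in HT1197, where 11.8% of all genes were higher and 7.8% lower, or in T24, with 9.37% and 0.93%. Scaling by library totals alone moves the median log2 fold change of all genes in SW780 upward by 0.20, so the direction of a decrease of less than that size in SW780 depends on the scaling.

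In DMSO the lines differed in all 9 genes, as did 97.5% of all genes tested by the F test over 24 libraries. TCCSUP had the highest level of 7 genes, and HT1197 of the other two, TAP1 and TAP2. NLRC5 covered the widest range, from 87.7 ± 1.09 CPM in TCCSUP to 1.10 ± 0.21 CPM in HT1197 (SD, n = 3 each), a ratio of 79.7. In between stood 639V at 34.3 CPM, T24 at 22.8, HT1376 at 14.3, KU1919 at 5.69, VMCUB at 3.05 and SW780 at 2.39. Each neighbouring pair in this order was called different except VMCUB and SW780 (adjusted p = 0.0504), whose libraries overlapped. PSMB9 had 103 ± 7.36 CPM in TCCSUP and 2.00 ± 0.17 CPM in HT1197, a ratio of 51.3, and 639V, SW780 and T24 in between, whose neighbouring pairs were not called (adjusted p = 0.266 and 0.632).

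HLA-B had 699 ± 31.9 CPM in TCCSUP and 17.1 ± 4.35 CPM in VMCUB, a ratio of 40.9. HT1376 was next at 197, then HT1197 at 105, KU1919 at 82.8, SW780 at 74.6, 639V at 68.7 and T24 at 29.2 CPM. The neighbouring pairs among KU1919, SW780 and 639V were not called (adjusted p = 0.209 and 0.485). HLA-C had another order, with TCCSUP at 908 ± 38.6 CPM, SW780 at 316, VMCUB at 156, HT1376 at 109.7, HT1197 at 98.0, KU1919 at 78.1, 639V at 75.7 and T24 at 36.0 ± 5.84 CPM, a ratio of 25.2 from end to end. VMCUB was thus the third line for HLA-C and the last for HLA-B. Its libraries held 154, 166 and 148 CPM of HLA-C and 15.2, 22.1 and 14.01 CPM of HLA-B in DMSO. HT1376 and HT1197 (adjusted p = 0.0523), and KU1919 and 639V (adjusted p = 0.791), were not called different in HLA-C.

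The other genes were more even. B2M ran from 1039 ± 52.1 CPM in TCCSUP to 328 ± 9.46 CPM in 639V, a ratio of 3.16, and the neighbouring pairs among the 6 lines below T24 were not called. TAP1 ran from 268 ± 8.01 CPM in HT1197 to 26.2 ± 1.40 CPM in KU1919, and TAP2 from 199 ± 1.49 CPM in HT1197 to 42.9 ± 0.68 CPM in SW780, ratios of 10.2 and 4.64. TAPBP ran from 383 ± 20.8 CPM in TCCSUP to 24.6 ± 1.09 CPM in KU1919, a ratio of 15.6. PSMB8 ran from 86.2 ± 2.83 CPM in TCCSUP to 8.48 ± 0.51 CPM in KU1919, a ratio of 10.2. KU1919 was thus lowest in TAP1, TAPBP and PSMB8. The order of VMCUB and HT1376 in TAP1 depended on the scaling, and their libraries overlapped. Over the 9 genes, 41 of 63 neighbouring pairs of lines were called different, beside 39.7% over all genes.

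**Figure D4:**
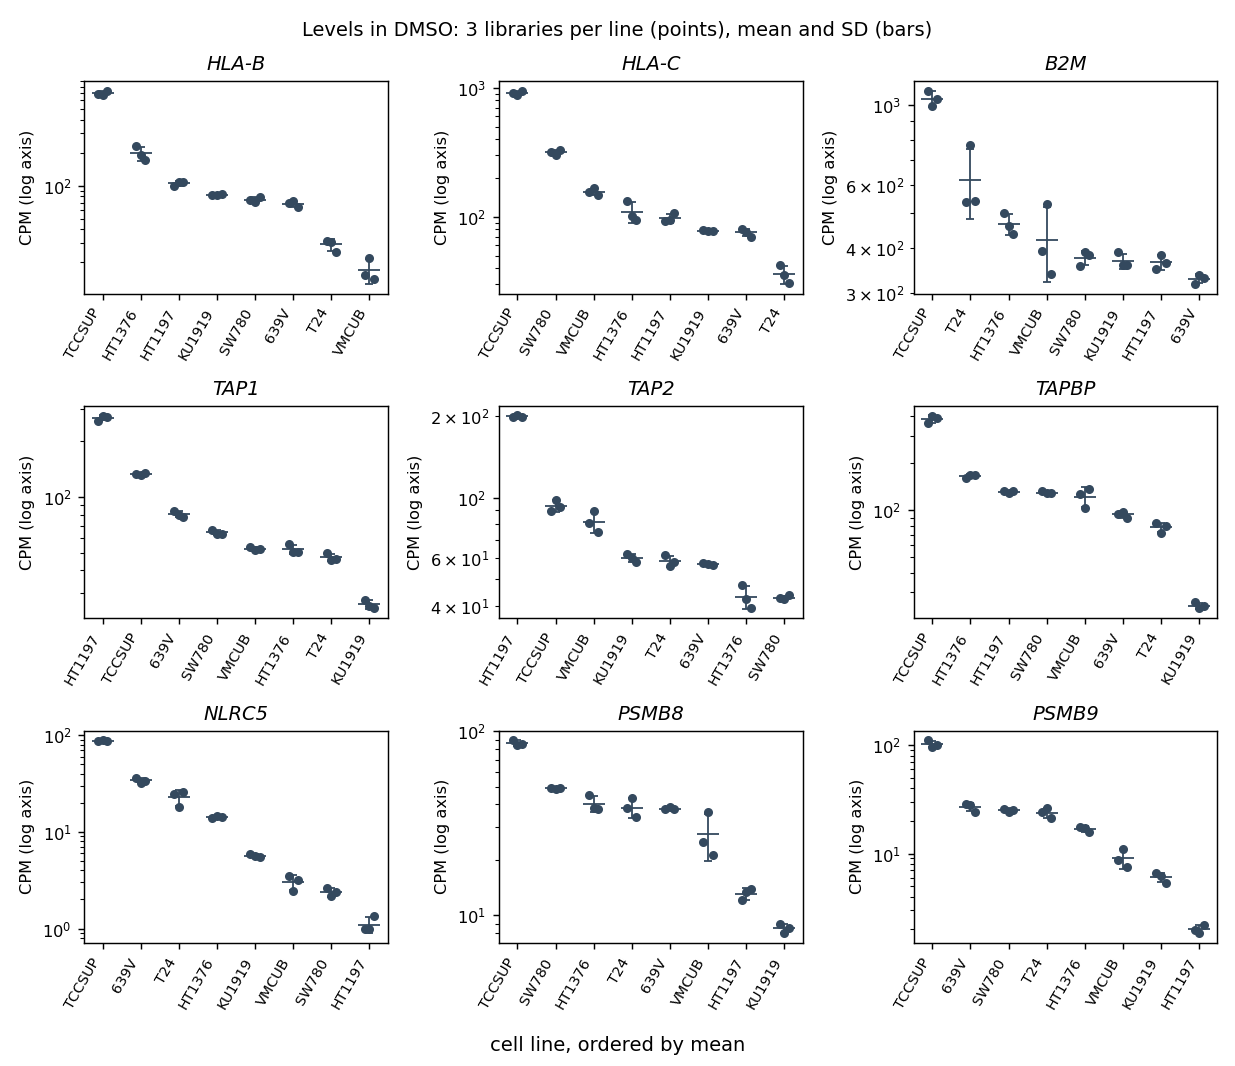
CPM (log axis) of the 9 genes in the 3 DMSO libraries of each line (points), with mean and SD as bars and lines in the order of their mean. TCCSUP stands first in 7 panels and HT1197 in those of TAP1 and TAP2; NLRC5 spans the widest range, 79.7-fold, and B2M the narrowest, 3.16-fold.

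Per kilobase of exon, NLRC5 was the lowest of the 9 genes in DMSO in all 8 lines, at 7.08 CPM per kilobase in TCCSUP and 0.0891 in HT1197. B2M was highest in 6 lines and HLA-C in SW780 and TCCSUP. By this measure HLA-B stood above HLA-C only in HT1376, at 64.7 ± 9.79 CPM per kilobase for HLA-B and 43.8 ± 7.98 for HLA-C. That order depends on the exon lengths used, 3051 bases for HLA-B and 2507 for HLA-C, whose annotated exons overlap. Their longest coding transcripts were nearly equal, at 1547 and 1554 bases. In CPM without a length, HLA-B was also above HLA-C in HT1197 (105 and 98.0 CPM) and KU1919 (82.8 and 78.1 CPM).

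Across the 16 group means, PSMB8 and PSMB9 were the most alike of the 9 genes, with a Pearson r of log2 CPM of 0.92. NLRC5 was most like PSMB9 (0.88) and PSMB8 (0.74), TAP1 most like TAP2 (0.77), and NLRC5 and TAP1 were unlike (-0.01). Among 16761 genes, those most like NLRC5 were NFIX (0.965), CSGALNACT2 (0.958) and PDP1 (0.954), and those most like HLA-B were ZSWIM4 (0.931), GPC2 (0.922) and PPARGC1A (0.897). By the same rule PSMB9 was the nearest gene to PSMB8, and the nearest to PSMB9 were ZNF232 (0.946), BTN3A3 (0.94) and C1R (0.931). The 16 points are 8 lines in 2 treatments, so they share lines and scaling and mostly show levels between lines. These values are a description with no test.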

How the data were processed

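Total RNA of the 8 lines was extracted with Trizol and sequenced as paired-end reads, per the labels' protocols. Reads were aligned or quantified with tools that the submitters' processing notes name as STAR 2.7.3a and RSEM 1.3.1, on hg38. The deposited values are integer counts for each Ensembl gene in 48 libraries. RSEM estimates need not be whole; how they became whole, the annotation, and whether strand was used are not given in the sources used here. GENCODE 29 gave coordinates and exon lengths on GRCh38, the same assembly as hg38. Of 35535 genes, 3756 were at 0 in all libraries.

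The 6 libraries of a line were compared with edgeR 4.0.16 in R 4.3.3 (TMM, filterByExpr, robust quasi-likelihood test, Benjamini-Hochberg adjustment over all genes tested, threshold 0.05). SE was computed from the log2 fold change and F. The shared response was fitted on 16 sums, with treatment and line in the model. Line differences used F tests and contrasts in 1 fit of 48 libraries, and DMSO levels a fit of 24. CPM used totals scaled by TMM factors from the 48 libraries together, and likeness a prior of 1. Counting precision covers counting error only, and the depth is given with the results. The fits were tested on simulated counts. Alternatives were RLE size factors, library totals, no filter, DESeq2 1.42.0, leaving out each library, replicate number or line, a replicate block, and all 48 libraries. The replicate block of the shared response was fitted on single libraries and not on sums. Replicate numbers were taken to pair samples only where all 3 pairs of a line correlated above 0.1, which held in 0 lines.

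Promoters came from RefSeq (GRCh38.p14), matched by symbol for 8 of 9 genes. Named were the 9 genes, EZH2 and a set list of pathway genes. The 2 genes of each pathway list with the smallest p for a difference between lines were also named. So were the 3 most like genes, passing over loci without an established symbol. Not all of these are described. The 9 genes, the lists and the tests were chosen with earlier results of these data known.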

Additional observations from a re-analysis of the deposited data

Results flagged for a closer look

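HLA-C had 1 line far from the others: among the log2 fold changes of the 8 lines, the gap between SW780, the lowest at -1.03, and its neighbour was 0.6 of the whole range, above Dixon's critical value for 8 values. PSMB8 had the same at the high end, with KU1919 at 1.05 and a gap of 0.716 of the range. Chance alone marks about 1 in 20 groups in this way, and 9 genes were examined. In KU1919 the CPI-0209 libraries were more spread than in other groups, and without replicate 1 of that group PSMB8 stood at 0.92.

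All 9 genes had a response to CPI-0209 that differed between the 8 lines in edgeR's F test, beside 58.7% of all genes. The adjusted p was 5.77e-15 for TAP1, 1.58e-13 for NLRC5, 2.56e-11 for HLA-C and 9.45e-11 for HLA-B. It was 1.24e-07 for TAPBP, 1.42e-07 for TAP2, 8.91e-06 for PSMB9, 5.78e-05 for B2M and 8.32e-05 for PSMB8.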

How the results depend on the processing

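Most results kept their direction and their side of the threshold. In SW780, scaling by library totals alone turned 2 small decreases, to 0.09 for TAP1 (adjusted p = 0.108) and 0.01 for PSMB9 (adjusted p = 0.837), since it moved the median of all genes by 0.20 and the calls over all genes to 8499 higher and 2839 lower, in place of 5208 and 5114. It also moved the shared response over all genes to 1703 higher and 110 lower, in place of 1324 and 800. The number of the 9 genes called was 1 in place of 3 in HT1197, and 2 in place of 1 in T24, when all 48 libraries were fitted together. In VMCUB it was 3 in place of 5 with RLE size factors, with no filter and with the replicate block. In the shared response 1 gene was called, 0 with no filter, 2 with DESeq2, and 0 without line HT1376, KU1919, T24, 639V, TCCSUP or VMCUB. With the replicate block it was 5, but that fit took the 48 libraries singly in place of the 16 sums. The library and not the line was then the unit, so this count is not comparable with the others. Calls over all genes were 8591 there, in place of 2124. Leaving out 1 library at a time gave 1 to 4 genes in HT1197, 2 to 6 in KU1919, 3 to 6 in VMCUB and 1 in T24, and leaving out 1 replicate number gave 0 to 1 in the shared response. In 0 lines did all 3 same-numbered pairs of libraries correlate above 0.1 in their deviations from the group means, although single pairs reached 0.33 in SW780, 0.31 in T24 and 0.3 in 639V, so the numbers were not taken to pair samples, and the replicate block changed the count in no other line by over 1.5 times. The cause of these shifts was not tested. NLRC5 in HT1197 rested on 34 to 82 counts per library.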
